A study of Homo sapiens with 6 samples.

Results

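The genes described here encode enzymes that make, recycle and balance the purine and pyrimidine nucleotides of WM164, an established human melanoma line from a lymph node metastasis with a mutated BRAF gene. A list of 34 such genes was taken, and 32 of them could be measured among 18417 genes. For each gene the probe sets (the array's measuring units) annotated with that symbol alone were used, and where there were several the brightest stood for the gene. DTYMK had 2 such probe sets with identical values. NME1 shares its probe set with a second symbol and ADSS2 was not listed in the annotation, so neither was analysed here. Expression was compared between 3 Parent arrays, from cells given the vehicle DMSO, and 3 IDTC arrays (induced drug tolerant cells), from cells kept for 16 days in PLX4032 at 500 nM (also called vemurafenib, which blocks the mutant BRAF kinase). Both groups are the same line, no duration of the DMSO treatment is given in the sources used here, and the samples were grown in triplicate with RNA isolated from each. Whether the cultures were independent experiments is not stated. The p-values set each group difference against the scatter within groups, which may be partly technical. They need not hold for other cultures of this line.

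Cells build purines on phosphoribosyl pyrophosphate (PRPP), an activated ribose, and build the pyrimidine ring before joining it to the same ribose. Ribonucleotide reductase turns ribonucleotides into the deoxynucleotides of DNA, and salvage enzymes recover free bases and nucleosides. Growing tumour cells draw heavily on both routes, and several of these genes are textbook targets of MYC and of the E2F factors that drive entry into S phase.

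Most nucleotide synthesis genes were lower in the drug-tolerant cells. Of the 32 measured, 28 fell, 2 rose and 2 were not called, the words fell and rose being kept for genes whose limma p, adjusted for all genes by Benjamini-Hochberg, lay under 0.05. Over all 18417 genes 24.9% fell, 21.7% rose and 46.6% were called in either direction. A fall of 2-fold or more was found for 14 of the 32, against 5.4% of all genes. The median log2 fold change (IDTC minus Parent) of the 32 was -0.89, beside -0.01 for all genes. The largest fall was that of PNP, the phosphorylase that splits purine nucleosides (-2.65 ± 0.07, SE, 3 arrays per group). The 2 genes that rose were TK2, the mitochondrial thymidine kinase, and SAMHD1, which breaks down deoxynucleotides. In a bulk measurement fewer cells expressing a gene and less of its RNA per cell cannot be told apart.

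**Figure D1:**
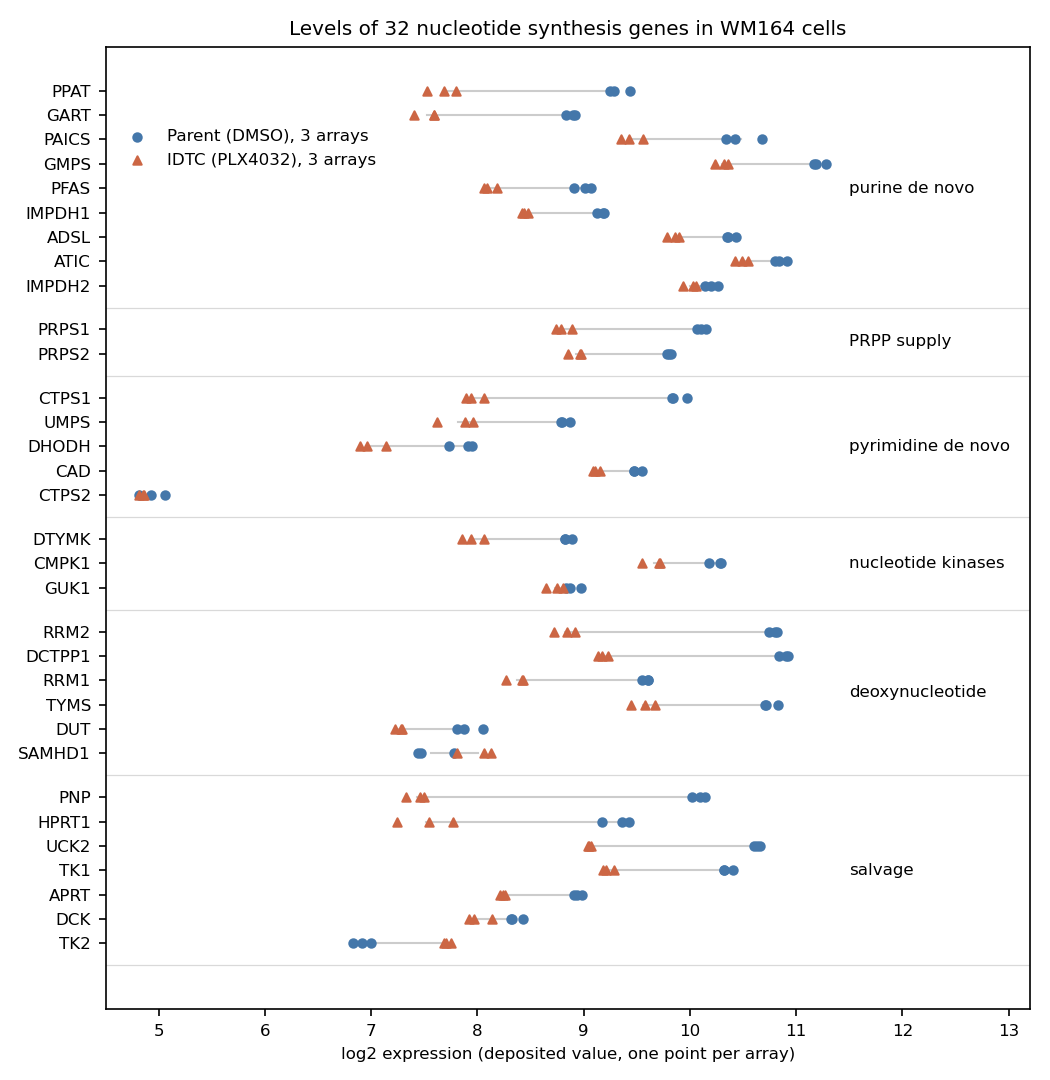
Each row is a gene, and the points are its deposited log2 expression values (x axis) on the 3 Parent arrays (circles) and the 3 IDTC arrays (triangles), with a grey line between the group means. In 31 of the 32 rows the groups do not overlap, and TK2 and SAMHD1 are the rows in which the triangles lie to the right.

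The plot of levels by array shows that the groups did not overlap for 31 of the 32 genes, against 54.1% of all genes. In 29 the IDTC arrays were the lower ones (28.7% of all genes) and in 2 the higher ones (25.4%). The exception was CTPS2. Within a group the SD of a member over its 3 arrays lay between 0.02 and 0.26 log2, and the widest was HPRT1 in IDTC cells. With the dimmest 40% of genes left out, 31 members remained (CTPS2 did not), and 39.6% of the 11050 genes then tested fell and 29.6% rose, a closer background for genes of this brightness.

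Promoter sequences are shown for members of different steps, because most of these genes moved the same way and their upstream bases can be compared. RefSeq windows of 250 bases before annotated starts (GRCh38.p14) were matched by symbol for 30 of the 32 genes, with 43 windows in all. ADSL and IMPDH2 were not matched. Both strands were searched for the E-box CACGTG (the MYC-type word), for the E2F-type words (TTTC or TTTG followed by CCGC or GCGC), for the NRF1-type word (GCGCA, any base, then GCGC) and for CCAAT. Capitals mark a match on either strand, so that a reversed E2F-type word reads GCGGGAAA, a reversed CCAAT reads ATTGG and a reversed NRF1-type word reads GCGCCTGCGC.
PPAT and PAICS, between their facing starts (chr4:56435616-56435751, minus strand): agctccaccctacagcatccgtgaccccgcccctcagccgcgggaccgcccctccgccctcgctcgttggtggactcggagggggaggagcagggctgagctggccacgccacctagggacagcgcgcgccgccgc
PRPS2 (chrX:12791162-12791411, plus strand): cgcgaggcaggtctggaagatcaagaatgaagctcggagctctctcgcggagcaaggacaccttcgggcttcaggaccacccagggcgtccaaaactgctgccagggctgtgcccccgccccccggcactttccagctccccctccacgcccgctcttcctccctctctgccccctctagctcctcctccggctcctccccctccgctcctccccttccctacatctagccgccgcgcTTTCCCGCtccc
DHODH (chr16:72008494-72008743, plus strand): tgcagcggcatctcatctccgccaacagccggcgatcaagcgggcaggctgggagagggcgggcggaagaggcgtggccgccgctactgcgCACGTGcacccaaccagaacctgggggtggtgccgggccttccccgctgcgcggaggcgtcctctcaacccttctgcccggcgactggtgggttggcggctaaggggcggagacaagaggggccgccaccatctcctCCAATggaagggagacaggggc
TYMS (chr18:657403-657652, plus strand): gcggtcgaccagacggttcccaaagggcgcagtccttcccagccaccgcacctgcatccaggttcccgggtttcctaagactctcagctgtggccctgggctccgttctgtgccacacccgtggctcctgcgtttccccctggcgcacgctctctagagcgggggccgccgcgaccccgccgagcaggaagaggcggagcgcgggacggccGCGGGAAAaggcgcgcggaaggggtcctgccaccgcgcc
PNP (chr14:20469156-20469405, plus strand): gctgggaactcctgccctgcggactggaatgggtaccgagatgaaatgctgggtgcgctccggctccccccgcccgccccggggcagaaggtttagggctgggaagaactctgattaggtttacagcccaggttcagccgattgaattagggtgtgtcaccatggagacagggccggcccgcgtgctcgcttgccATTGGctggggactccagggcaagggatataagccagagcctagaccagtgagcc
SAMHD1 (chr20:36951709-36951958, minus strand): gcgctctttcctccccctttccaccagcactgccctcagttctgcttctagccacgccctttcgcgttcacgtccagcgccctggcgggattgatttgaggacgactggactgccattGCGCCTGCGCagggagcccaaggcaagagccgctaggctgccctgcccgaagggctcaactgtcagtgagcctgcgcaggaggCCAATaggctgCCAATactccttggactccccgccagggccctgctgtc

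An E-box was present in 5 of the 43 windows (11.6%), those of PPAT, ATIC, DHODH, DCK and DCTPP1, and in 6.34% of 35116 windows of all promoters and 7.38% of 20109 windows of genes tested on the arrays. An E2F-type word was present in 4 windows (9.30%), those of TYMS, DUT, GART and PRPS2, against 2.79% and 3.50%. The NRF1-type word was present in 5 windows (11.6%) against 5.07% and 6.79%, and CCAAT in 14 (32.6%) against 32% and 32.6%. These counts are small, the windows of a gene can overlap, and no test was made. In PRPS2 the E2F-type word lies 5 to 12 bases before the start, and in TYMS 32 to 39 bases before it. The E-box of DHODH lies 154 to 159 bases before the start. SAMHD1, which rose, holds an NRF1-type word and 2 CCAAT words, and PNP, with the largest fall, holds a single CCAAT word. The E-box genes changed by -0.35 (DCK), -0.37 (ATIC), -0.87 (DHODH), -1.65 (PPAT) and -1.71 (DCTPP1). Windows of PNP, RRM2, CTPS1 and HPRT1, which fell strongly, hold neither an E-box nor an E2F-type word. A link between a word and the size of a fall was not tested.

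**Figure D2:**
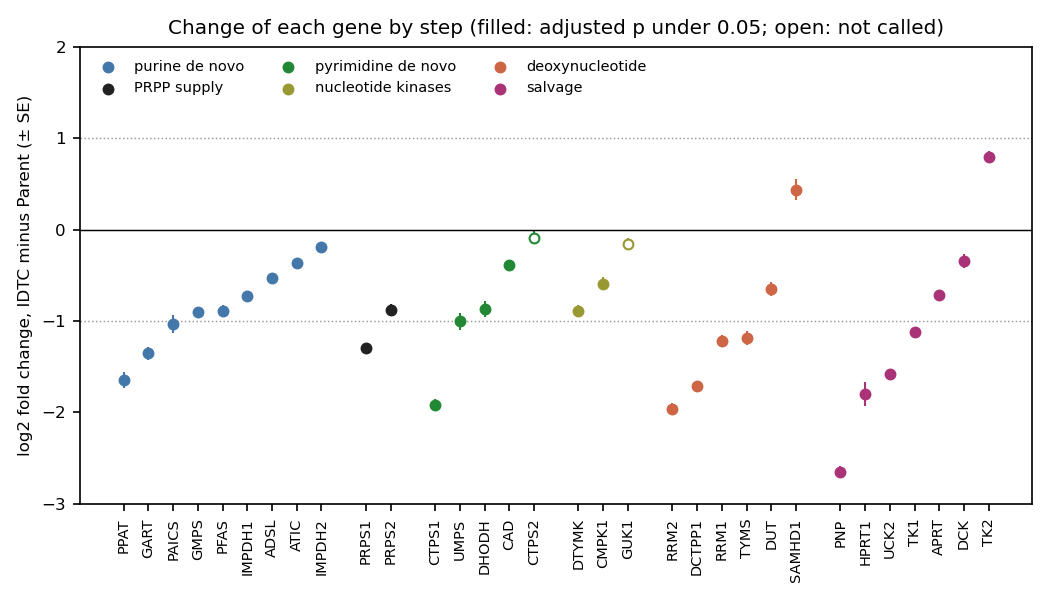
Log2 fold change of each gene (IDTC minus Parent, y axis) with its standard error, ordered within each step; filled points passed an adjusted p under 0.05 and open points (CTPS2 and GUK1) did not, and dotted lines mark 2-fold. The largest falls of each step are PPAT, PRPS1, CTPS1, DTYMK, RRM2 and PNP, and TK2 and SAMHD1 lie above 0.

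Both genes of PRPP supply fell. PRPS1, a PRPP synthetase gene on the X chromosome, was at 10.07, 10.15 and 10.10 log2 in Parent and at 8.89, 8.79 and 8.74 in IDTC arrays. All 3 IDTC arrays lay below all 3 Parent arrays, and PRPS1 fell by 1.30 ± 0.06 on the log2 scale (2.46-fold, adjusted p = 2.90e-06). PRPS2, the second PRPP synthetase gene, whose promoter with an E2F-type word is printed above, fell by 0.87 ± 0.06 (adjusted p = 1.36e-05). PRPS1 minus PRPS2 within each array moved by -0.43 log2, from 0.30 ± 0.03 (SD, n = 3) to -0.12 ± 0.06. Of 2 regulatory subunits of the synthetase, PRPSAP1 rose by 0.96 ± 0.06 (adjusted p = 1.41e-05) and PRPSAP2 was not called (-0.15, adjusted p = 0.0892).

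All 9 measured genes of the purine route fell, with a median of -0.89 and a range from -1.65 to -0.20. PPAT, the amidotransferase of the committed step, was at 9.43, 9.29 and 9.25 in Parent and at 7.69, 7.80 and 7.53 in IDTC arrays. The groups lay apart by more than 1 log2 unit, and PPAT fell by 1.65 ± 0.09 (3.14-fold, adjusted p = 5.13e-06). GART, which encodes 3 activities of the route in 1 protein, was at 8.92, 8.83 and 8.90 in Parent and at 7.59, 7.60 and 7.40 in IDTC arrays. Its groups were as clearly apart, and it fell by 1.36 ± 0.07 (2.56-fold, adjusted p = 4.85e-06). PAICS, the bifunctional carboxylase and ligase gene, was at 10.68, 10.34 and 10.42 in Parent and at 9.56, 9.43 and 9.35 in IDTC arrays. Parent 1 was its highest array, and it fell by 1.04 ± 0.10 (adjusted p = 1.01e-04). PFAS, which adds the nitrogen of glutamine midway along the route, fell by 0.89 ± 0.07.

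Next in the route, ADSL, a lyase that acts both before and after the branch point, fell by 0.53 ± 0.06, and ATIC, which closes the ring to IMP, fell by 0.37 ± 0.06 (1.29-fold). At the branch point GMPS, the GMP synthetase, fell by 0.91 ± 0.06 and IMPDH1, an isoform of the rate-limiting dehydrogenase toward guanine nucleotides, fell by 0.72 ± 0.05. IMPDH2, the isoform that dividing cells favour, was at 10.14, 10.20 and 10.26 in Parent and at 10.03, 10.05 and 9.93 in IDTC arrays. The groups were close without overlapping, and IMPDH2 fell by 0.20 ± 0.06, just past the threshold (adjusted p = 0.0347). Its call was lost in 8 of 12 alternatives (adjusted p from 0.00813 to 0.325): after quantile normalization (-0.08, adjusted p = 0.325), after re-centring (-0.13, 0.116), with the replicate number as a block (0.0637), and without Parent 2 (0.0913), Parent 3 (0.120), IDTC 1 (0.0607), IDTC 2 (0.0520) or IDTC 3 (0.0687). IMPDH1 minus IMPDH2 within arrays moved by -0.53, from -1.04 ± 0.04 to -1.56 ± 0.09 (SD, n = 3). On the adenine branch ADSS1, the other adenylosuccinate synthetase gene and no member of the list, was at 7.27, 7.14 and 7.53 in Parent and at 9.03, 9.23 and 9.11 in IDTC arrays. It moved the other way, with a rise of 1.81 ± 0.11 (3.51-fold, adjusted p = 8.81e-06). ADSS2 was not analysed here.

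Of 5 pyrimidine route genes, 4 fell and 1 was not called. CTPS1, the CTP synthetase that proliferating lymphocytes are known to require, was at 9.98, 9.83 and 9.84 in Parent and at 8.06, 7.94 and 7.89 in IDTC arrays. Each IDTC array lay well below every Parent array, and CTPS1 fell by 1.92 ± 0.07 (3.78-fold, adjusted p = 1.17e-06). Its paralogue CTPS2 was at 4.81, 5.06 and 4.93 in Parent and at 4.86, 4.86 and 4.82 in IDTC arrays. These ranges overlap at a signal so low that a change may not be visible, and CTPS2 was not called (-0.09 ± 0.07, adjusted p = 0.366). CTPS1 minus CTPS2 moved by -1.83, from 4.95 ± 0.20 to 3.12 ± 0.07, which at this low CTPS2 signal restates the fall of CTPS1 and shows no change of balance. UMPS, which makes UMP from orotate, was at 8.79, 8.80 and 8.88 in Parent and at 7.88, 7.96 and 7.62 in IDTC arrays. It fell by 1.00 ± 0.09 (adjusted p = 8.30e-05), and IDTC 3 was its lowest array. DHODH, the mitochondrial dehydrogenase of the route, whose promoter with an E-box is printed above, fell by 0.87 ± 0.09 (adjusted p = 1.18e-04). CAD, the trifunctional enzyme that opens the route, changed least among those that fell, by -0.38 ± 0.05 (1.30-fold, adjusted p = 6.87e-04).

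Among 3 nucleotide kinases that add phosphates to finished nucleotides, 2 fell. DTYMK, the thymidylate kinase, was lower by 0.89 ± 0.07 in IDTC cells (adjusted p = 2.91e-05), and CMPK1, which phosphorylates CMP and UMP, fell by 0.59 ± 0.07 (adjusted p = 2.73e-04). GUK1, the guanylate kinase, was at 8.83, 8.87 and 8.97 in Parent and at 8.64, 8.75 and 8.80 in IDTC arrays. Its groups did not overlap, yet the difference of -0.16 ± 0.07 was not called (adjusted p = 0.0893).

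Of 6 genes that make, clean or degrade deoxynucleotides, 5 fell and 1 rose. RRM2, the reductase subunit that is made in S phase, was at 10.82, 10.74 and 10.80 in Parent and at 8.92, 8.84 and 8.72 in IDTC arrays. All IDTC arrays were lower, and RRM2 fell by 1.96 ± 0.07 (3.90-fold, adjusted p = 9.49e-07). RRM1, the large reductase subunit, was at 9.61, 9.55 and 9.61 in Parent and at 8.43, 8.42 and 8.27 in IDTC arrays. It fell by 1.22 ± 0.06 (adjusted p = 4.78e-06), and RRM1 minus RRM2 within arrays moved by 0.75, from -1.20 ± 0.01 to -0.45 ± 0.03. RRM2B, a p53-inducible small subunit used outside S phase and no member of the list, was at 8.11, 7.94 and 7.92 in Parent and at 8.06, 7.99 and 7.79 in IDTC arrays. Its groups overlapped, it was not called (-0.04 ± 0.09, adjusted p = 0.734), and RRM2 minus RRM2B moved by -1.92. TYMS, the thymidylate synthase whose upstream bases with an E2F-type word are printed above, was at 10.83, 10.71 and 10.71 in Parent and at 9.58, 9.67 and 9.45 in IDTC arrays. It fell by 1.19 ± 0.07 (2.28-fold, adjusted p = 1.14e-05). DCTPP1, a pyrophosphatase that removes surplus and modified dCTP, was at 10.91, 10.84 and 10.92 in Parent and at 9.17, 9.23 and 9.13 in IDTC arrays. It fell by 1.71 ± 0.06 (3.27-fold, adjusted p = 7.65e-07), next in size to RRM2 within this step. DUT, which keeps uracil out of DNA by splitting dUTP, fell by 0.65 ± 0.07 (adjusted p = 2.46e-04).

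SAMHD1, the triphosphohydrolase that lowers deoxynucleotide pools, was at 7.78, 7.44 and 7.47 in Parent and at 8.13, 8.06 and 7.81 in IDTC arrays. The highest Parent and the lowest IDTC array nearly met, and the rise was 0.44 ± 0.12 (1.35-fold, adjusted p = 0.0187). The call was lost without Parent 2 (adjusted p = 0.0730), Parent 3 (0.0747), IDTC 1 (0.0644) or IDTC 2 (0.0660), with a range of 0.00406 to 0.0747 over 12 alternatives.

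Of 7 salvage genes, 6 fell and 1 rose. PNP was at 10.09, 10.14 and 10.02 in Parent and at 7.50, 7.46 and 7.32 in IDTC arrays. With its groups far apart it changed most of all measured members, and it fell by 2.65 ± 0.07 (6.30-fold, adjusted p = 3.45e-07). HPRT1, which returns hypoxanthine and guanine to nucleotides, was at 9.43, 9.36 and 9.17 in Parent and at 7.77, 7.55 and 7.25 in IDTC arrays. Its arrays scattered most, and it still fell by 1.80 ± 0.14 (3.48-fold, adjusted p = 2.76e-05). UCK2, a uridine and cytidine kinase abundant in many tumours, was at 10.60, 10.63 and 10.66 in Parent and at 9.05, 9.04 and 9.07 in IDTC arrays. Its arrays were tightly grouped, and it fell by 1.58 ± 0.05 (2.98-fold, adjusted p = 7.0e-07). Its relative UCK1, outside the list, rose by 0.49 (adjusted p = 0.00695). APRT, the adenine salvage enzyme, fell by 0.71 ± 0.05, and DCK, which phosphorylates deoxycytidine, fell by 0.35 ± 0.07 (1.27-fold, adjusted p = 0.00636).

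The thymidine kinases moved in opposite directions. TK1, the cytosolic enzyme made in S phase, was at 10.32, 10.33 and 10.40 in Parent and at 9.29, 9.18 and 9.21 in IDTC arrays, and it fell by 1.12 ± 0.06 (2.18-fold, adjusted p = 4.26e-06). TK2 was at 6.83, 6.92 and 7.0 in Parent and at 7.68, 7.75 and 7.70 in IDTC arrays, a rise of 0.80 ± 0.06 (1.74-fold, adjusted p = 3.11e-05). TK1 minus TK2 therefore moved by -1.92, from 3.43 ± 0.05 to 1.52 ± 0.09.

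**Figure D3:**
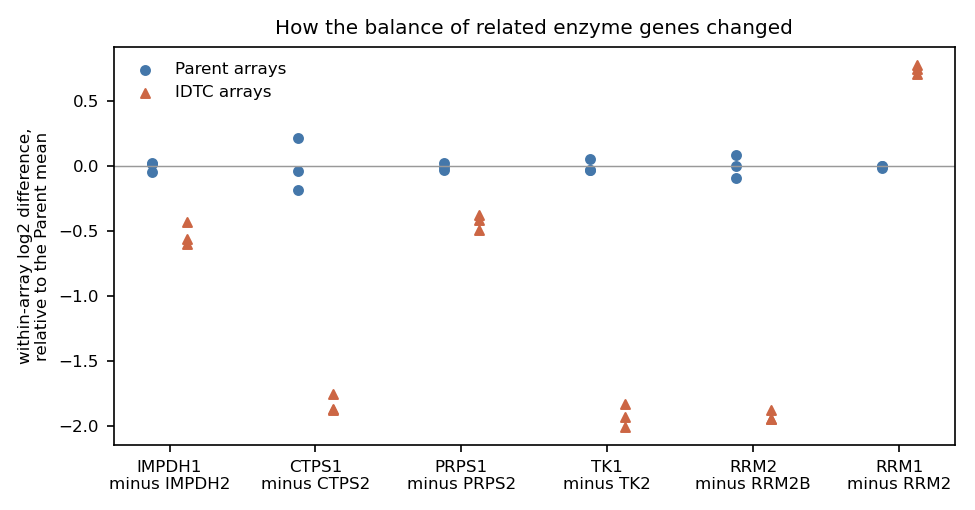
Within-array log2 difference between related genes, set to 0 at the Parent mean of each pair (y axis, log2 units), for 3 Parent (circles) and 3 IDTC arrays (triangles). The difference moved by -0.43 to -1.92 in 5 pairs and by 0.75 for RRM1 minus RRM2, and the groups overlap in none of the 6.

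The plot of related pairs gathers these 6 within-array differences. Each had p = 0.1 in a 2-sided exact permutation test over the 6 arrays, also after adjustment over the 6 pairs, which is the smallest p that 3 against 3 arrays allow. No pair could therefore reach a p under 0.05 in this test. For the 5 pairs other than CTPS1 and CTPS2, whose CTPS2 signal was too low to judge, the differences describe at most a change of balance. Signals of different probe sets are not on a common scale, and RRM2 stands in 2 of the pairs.

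Several members start head to head with another gene, so that a short stretch of DNA lies before both. Where a gene has several annotated starts, the distance given is from one that faces the neighbour. PAICS has several, and the one facing PPAT lies 137 bases from the PPAT start. Both genes fell. The 136 bases between these starts, printed above, hold none of the words searched. The E-box counted for PPAT lies farther upstream. It is inside the transcribed part of PAICS when read from the facing start, but lies before another annotated PAICS start. DTYMK and ING5, a chromatin reader gene, start 205 bases apart, and ING5 fell by 0.49 ± 0.08 (adjusted p = 0.00148). GART and SON, a splicing cofactor gene, start 146 bases apart, and SON, whose mean was 9.16 ± 0.05 in Parent and 9.25 ± 0.07 in IDTC cells (SD, n = 3), was not called (adjusted p = 0.255). TK1 and AFMID, a formamidase gene of tryptophan breakdown, start 158 bases apart, and AFMID, at 8.08 ± 0.02 and 8.03 ± 0.08, was not called (adjusted p = 0.545). These pairs were chosen by position alone, and the difference between partners was not tested.

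**Figure D4:**
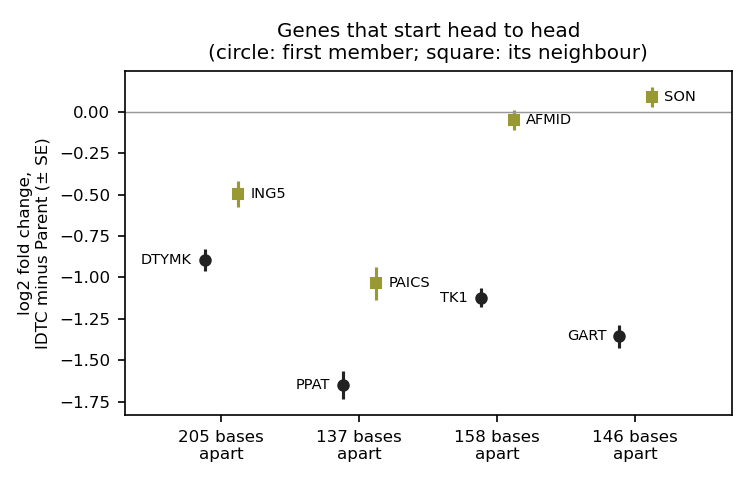
Log2 fold change (IDTC minus Parent, y axis, ± SE) of 4 pairs of genes that start head to head, with the distance between starts in bases below each pair. PPAT (-1.65), PAICS (-1.04), DTYMK (-0.89) and ING5 (-0.49) lie below 0, and AFMID (-0.05) and SON (0.09) lie near 0 beside TK1 (-1.12) and GART (-1.36).

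Other genes of nucleotide metabolism are given by their counts, to be read beside the 24.9% that fell and 21.7% that rose among all genes, with no test of their difference from the synthesis genes. Of 14 genes of folate and one-carbon supply, which feed purine and thymidylate synthesis, 7 fell and 2 rose, with 5 uncalled and a median of -0.23. The mitochondrial folate carrier gene SLC25A32 (-1.27 ± 0.06), the cytosolic serine hydroxymethyltransferase gene SHMT1 (-1.23 ± 0.08) and the folate carrier gene SLC19A1 (-1.04 ± 0.07) fell. The mitochondrial genes ALDH1L2 (0.83 ± 0.08) and SHMT2 (0.45 ± 0.05) rose. Among other mitochondrial genes of this list, MTHFD1L fell (-0.42 ± 0.05), and MTHFD2 and MTHFD2L were not called. Of 22 other kinase, reductase and salvage genes, 8 fell and 7 rose, with 7 uncalled and a median of -0.10, and without Parent 3 or IDTC 2 only 5 fell. AK4, a mitochondrial adenylate kinase gene, was at 10.85, 10.86 and 10.80 in Parent and at 8.62, 8.51 and 8.44 in IDTC arrays, and it fell by 2.31 ± 0.06 (4.97-fold). These values are of the brighter of its 2 probe sets. Over 12 alternatives, which include averaging a gene's probe sets, its change ran from -2.36 to -1.54. MTAP (-0.61 ± 0.09), which salvages adenine from polyamine synthesis, and NME4 (-0.41 ± 0.05) also fell. Besides ADSS1 and PRPSAP1, GMPR, which returns GMP to IMP, rose by 0.84 ± 0.05.

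Of 29 breakdown genes, 10 fell and 5 rose, with 14 uncalled and a median of -0.06. The count that rose was 2 without Parent 2 and 3 without Parent 1, Parent 3, IDTC 1 or IDTC 2. The ectonucleotidase gene NT5E, whose product makes extracellular adenosine, fell by 2.62 ± 0.09 (6.17-fold), and the uridine phosphorylase gene UPP1 (-1.60 ± 0.06) and ENTPD6 (-1.36 ± 0.05) fell too. DPYD (0.48 ± 0.09), the entry enzyme of pyrimidine breakdown, ENTPD5 (0.30 ± 0.08, lost without Parent 2, Parent 3 or IDTC 2, with an adjusted p from 0.00273 to 0.0651 over 12 alternatives) and NT5C2 (0.29 ± 0.07) rose. Of 12 carriers, 5 fell and 1 rose, with 6 uncalled and a median of -0.12. The equilibrative nucleoside transporter genes SLC29A2 (-1.10 ± 0.07) and SLC29A1 (-0.75 ± 0.05) and the ATP/ADP carrier gene SLC25A4 (-0.91 ± 0.06) fell, and SLC29A4 rose by 1.18 ± 0.07.

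**Figure D5:**
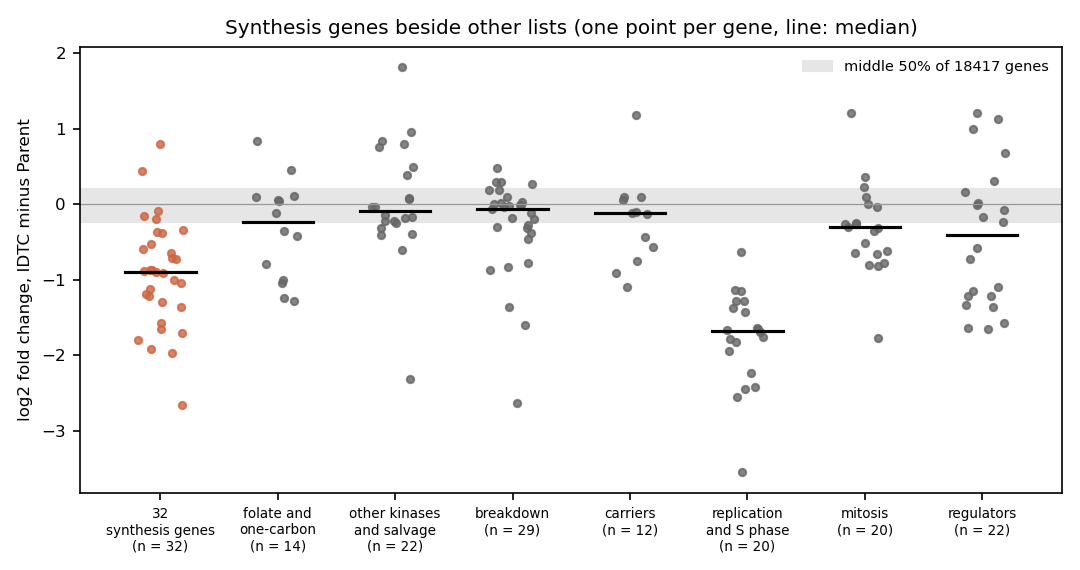
Log2 fold change (IDTC minus Parent, y axis) of every measured gene of the synthesis list and of 7 other lists, with a black line at each median and a grey band for the middle 50% of all 18417 genes. The synthesis genes (median -0.89) lie between the replication genes (median -1.68) and the other nucleotide lists (medians from -0.23 to -0.06). All lists were chosen with earlier results of these data known.

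The plot of lists sets these groups beside genes of the cell cycle. Their counts, too, are to be read beside the 24.9% that fell and 21.7% that rose among all genes. Every one of 20 replication and S phase genes fell, with a median of -1.68, and 19 did so at least 2-fold. They were led by the helicase loader gene CDC6 (-3.55 ± 0.07), the cyclin gene CCNE2 (-2.55 ± 0.11) and the polymerase subunit gene POLE2 (-2.45 ± 0.09). This list, like the others, was chosen with earlier results of these data known, so its uniform fall is no independent yardstick. Of 20 mitosis genes 13 fell and 2 rose, with 5 uncalled and a median of -0.30. The count that fell was 9 to 14 when single arrays were left out. MAD2L1 (-1.77 ± 0.15), CDK1 (-0.81 ± 0.15) and AURKB (-0.80 ± 0.06) fell most, KIF20A (1.20 ± 0.06) and CENPF (0.36 ± 0.08) rose, and the proliferation marker MKI67 fell by 0.24 ± 0.07. The MKI67 call was lost after re-centring and without Parent 1 or Parent 3 (adjusted p = 0.0550, 0.0558 and 0.0527, and 0.00807 to 0.0558 over 12 alternatives). Averaged over the 32 synthesis genes, the level was 9.37 to 9.41 in Parent and 8.40 to 8.52 in IDTC arrays. Averaged over the 20 replication genes it was 9.41 to 9.47 and 7.58 to 7.72. The part of the S phase genes' change in that of the synthesis genes was not tested.

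Genes known to regulate nucleotide synthesis moved as follows. MYC, the growth factor-responsive transcription factor, was at 10.74, 10.69 and 10.75 in Parent and at 9.38, 9.45 and 9.37 in IDTC arrays. It fell by 1.33 ± 0.05 (2.52-fold, adjusted p = 1.58e-06), with all IDTC arrays lower. The MYC antagonist genes MXI1 (1.13 ± 0.05) and MXD4 (1.00 ± 0.07) rose. MNT, another MYC antagonist gene, was uncalled in 9 of 12 alternatives (changes of 0.12 to 0.23 over the 12). The E2F family genes E2F1 (-1.36 ± 0.06), E2F7 (-1.57 ± 0.06) and E2F8 (-1.66 ± 0.10) and the cell cycle factor gene MYBL2 (-1.63 ± 0.06) fell. E2F2, E2F4, E2F5 and E2F6 fell in all 12 alternatives, and E2F3 was called in none of them (-0.10 to 0.08). The pocket protein gene RBL2 rose by 1.20 ± 0.09. Of the other pocket protein genes, RBL1 fell in all 12 alternatives (-1.23 to -1.04) and RB1 was called in none of them. The activator genes ATF4 (0.68 ± 0.05, or 0.39 with its 2 probe sets averaged), of the amino acid response, and NRF1 (0.30 ± 0.07), whose type of word was counted in the promoters, also rose. Of the 22 regulators 12 fell, 5 rose and 5 were not called, beside 24.9% that fell and 21.7% that rose among all genes. The count of regulators that rose is near that share.

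The arrays of a group correlated at r = 0.995 to 0.998 over 18417 genes and arrays of different groups at 0.953 to 0.957. By these correlations no array stood apart. In scale, IDTC 3 had the narrowest interquartile range over genes (2.90 log2, against 3.07 to 3.23). Its median over all probe sets was the highest (6.36, against 6.25 to 6.32). Melanocyte lineage genes speak to the lineage and cannot identify the line. PMEL was at 12.52 and 13.40, MLANA at 10.94 and 12.39 and SOX10 at 10.73 and 11.57 in Parent and IDTC cells. TYRP1 was dimmer, at 4.69 and 7.58, and DCT was not measured. Of 7 such markers 5 rose, 1 fell (S100B, at 11.02 and 10.17) and 1 was not called (MITF, at 11.14 and 11.10). None of 7 keratinocyte or 8 endothelial markers was called. Of 8 fibroblast markers 2 fell and 1 rose, and of 8 immune markers 3 fell (LYZ, FCER1G and CD68) and 1 rose, while PTPRC, the pan-leukocyte marker, was at 3.67 and 3.81. All these marker counts are to be read beside the 24.9% that fell and 21.7% that rose among all genes. The count of fibroblast markers that fell is near that share. The mean of the fibroblast markers was 5.90 to 5.98 in Parent and 5.85 to 5.87 in IDTC arrays, and that of the immune markers 6.09 to 6.11 and 5.35 to 5.51. Their part in the results above was not tested.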

How the data were processed

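Deposited values were log2 expression of 33297 probe sets on 6 whole-transcript arrays. Affymetrix Expression Console, RMA and Partek 6.6 appear in the submitters' processing notes, without their roles. The deposited log2 values were used without further normalization, and no source used here says which steps the authors applied. No detection call or genome build is given in the sources used here, so background signal may understate changes of dim genes. The platform annotation listed 21214 probe sets, of which 19460 had 1 symbol and 1754 several. The brightest probe set stood for a gene, which left 18417 genes. The test was limma's moderated 2-sided test (version 3.58.1, R 4.3.3) without covariates or filter, and calls needed an adjusted p (Benjamini-Hochberg) under 0.05. Errors of log2 fold changes are standard errors, and 3 arrays per group limit the precision. The fit was tested on simulated data. Members and lists were chosen with earlier results of these data known. All measured members are named, and of each other list the 3 called genes of largest change per direction, with MKI67, MYC and E2F1. Outside this rule, PRPSAP2, UCK1, ATF4, NRF1, RRM2B, head-to-head neighbours and markers were named after their values were seen or for their position or pairing. So were RBL1, RB1, MNT, E2F2, E2F3, E2F4, E2F5, E2F6, MTHFD1L, MTHFD2, MTHFD2L, GDA and MYCN. Motif words were counted in RefSeq windows of GRCh38.p14 with Python 3.11.15. Alternatives were 2 scalings, a dim-gene filter, averaged probe sets, another variance model, a replicate block and leaving out each array. The replicate numbers were not taken as pairing.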

Additional observations from a re-analysis of the deposited data

How the results depend on the processing

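Of the 30 called members, 28 kept their call and direction in all 12 alternatives, and the 2 uncalled members stayed uncalled in each alternative that tested them. The exceptions were IMPDH2 and SAMHD1. The count of members that fell was 27 or 28. Leaving out single arrays, the members that rose numbered 1 to 2, the deoxynucleotide genes that rose 0 to 1, the other kinase and salvage genes that fell 5 to 8 and the breakdown genes that rose 2 to 5. The mitosis genes that fell numbered 9 to 14 in those fits and 10 to 14 in the other alternatives. Re-centring on array medians left 5 of the other kinase and salvage genes that fell in place of 8. Quantile normalization gave 2 carriers and 4 mitosis genes that rose, where the main counts were 1 and 2. The causes were not tested. Over all genes 3996 rose and 4592 fell, against 4846 and 4017 after re-centring and 4504 and 4403 after quantile normalization. With the replicate number as a block, 4148 rose and 4707 fell, and among members only IMPDH2 lost its call (adjusted p = 0.0637). Deviations of same-numbered arrays correlated at 0.31, -0.19 and 0.26, and 3 of the 6 arrays matched their own number best, so the numbers were not treated as pairs. Without a detection call, no limit of detection can be given, and CTPS2 is the member this touches most.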

Other observations

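The 3 Parent values of GMPR were identical in the deposited table (10.05 log2 each), so the gene's own spread in its error comes from the IDTC arrays alone, beside the spread that limma borrows from other genes. Such ties are not particular to GMPR. The Parent values of GDA and the IDTC values of MYCN were also identical, and other genes, such as S100B, had equal values on some arrays of a group. Ties also crossed the groups. GDA had the same value (4.19) on IDTC 1 and IDTC 3 as on the Parent arrays. DCN had 1 value (3.67) on Parent 2, Parent 3, IDTC 1 and IDTC 3. The 2 probe sets of DTYMK held the same values on every array, so they count as 1 measurement.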
